A study of Mus musculus with 31 samples.

Results

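A total of 330 transcribed loci in the mouse hippocampus were found at 2 separate levels among mice of the same genotype and treatment, with no mouse in between. They are called split loci here. Each locus is a set of overlapping transcripts that the assembly program merged, carries a number (MSTRG) and, in most cases, a gene name, and its level is given in FPKM, the number of fragments relative to the length of the transcript and to the total mapped in the library. Of the 27094 loci of the table, 17139 had an FPKM above 1 in at least 10 mice. Within each group the values of log2(FPKM + 1) were sorted, and a locus was kept when a gap above 2 between neighbouring mice left at least 2 mice on either side. The loci were thus chosen by their measured gap, so its presence is a description and was not tested.

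Hippocampal RNA came from 31 male mice of the strain C57BLKS/J, all 3 months old by the labels, and each library was taken as 1 mouse. The 11 db/m mice, the lean littermate controls, are heterozygous for the db mutation, which lies in Lepr, the gene of the leptin receptor. The 10 db/db mice carry the db mutation on both copies, which makes them obese and diabetic, and were fed freely. The 10 db/db-IF mice have the db/db genotype and were kept on intermittent fasting. Every group thus carries at least 1 db allele, and db/db mice lack the long leptin receptor from before birth, so the diabetes of this model is not that of a fed wild-type mouse. Lepr itself ranged from 0.142 to 0.576 FPKM in db/m, 0.0824 to 0.445 in db/db and 0.0716 to 0.339 in db/db-IF, too low to be among the loci tested.

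The hippocampus is a sheet of excitatory neurons with interneurons, astrocytes, oligodendrocytes, microglia and vessels, and bulk RNA adds all of them up. In such RNA, fewer cells of a type and less RNA per cell cannot be told apart. A program that assembles transcripts can place the fragments of 1 gene on several loci, when the gene is read in separate pieces or when the reference holds it at more than 1 place. FPKM does not carry the number of fragments, so the depth behind a value is unknown, and an exact 0 says only that a locus is listed at 0.

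The promoters of 5 genes that recur below are shown because their loci took different forms, namely a low and a high level (Lhfpl4, Uqcrfs1 and Prkca), an exchange between loci of 1 gene (Fgfr1op2) and a listing at 0 in a few mice (Ets2). Each run covers 300 bases around the annotated start, from RefSeq on GRCm38.p6, written along the strand of the gene with every CG in capitals.
Lhfpl4: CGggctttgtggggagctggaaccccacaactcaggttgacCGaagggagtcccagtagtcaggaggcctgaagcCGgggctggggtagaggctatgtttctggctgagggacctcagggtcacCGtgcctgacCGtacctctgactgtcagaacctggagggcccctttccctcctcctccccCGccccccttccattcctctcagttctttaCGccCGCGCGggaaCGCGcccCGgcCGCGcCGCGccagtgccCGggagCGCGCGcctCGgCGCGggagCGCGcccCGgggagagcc
Uqcrfs1: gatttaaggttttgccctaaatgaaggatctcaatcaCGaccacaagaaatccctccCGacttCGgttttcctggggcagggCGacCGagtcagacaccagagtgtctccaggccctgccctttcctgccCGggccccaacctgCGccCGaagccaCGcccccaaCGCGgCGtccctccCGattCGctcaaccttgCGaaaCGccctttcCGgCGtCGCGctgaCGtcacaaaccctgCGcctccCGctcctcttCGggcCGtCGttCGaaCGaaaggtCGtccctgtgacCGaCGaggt
Prkca: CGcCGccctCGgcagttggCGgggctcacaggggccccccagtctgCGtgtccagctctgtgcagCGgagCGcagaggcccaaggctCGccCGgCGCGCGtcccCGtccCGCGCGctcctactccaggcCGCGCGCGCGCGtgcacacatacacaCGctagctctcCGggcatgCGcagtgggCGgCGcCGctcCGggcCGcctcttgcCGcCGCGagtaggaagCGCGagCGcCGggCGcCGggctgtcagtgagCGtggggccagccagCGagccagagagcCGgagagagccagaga
Fgfr1op2: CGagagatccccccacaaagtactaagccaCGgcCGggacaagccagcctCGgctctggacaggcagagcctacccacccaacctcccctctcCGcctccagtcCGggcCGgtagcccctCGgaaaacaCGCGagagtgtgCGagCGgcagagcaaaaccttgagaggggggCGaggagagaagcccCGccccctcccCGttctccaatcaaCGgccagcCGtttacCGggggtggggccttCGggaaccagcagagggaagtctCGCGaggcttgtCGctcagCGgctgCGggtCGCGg
Ets2: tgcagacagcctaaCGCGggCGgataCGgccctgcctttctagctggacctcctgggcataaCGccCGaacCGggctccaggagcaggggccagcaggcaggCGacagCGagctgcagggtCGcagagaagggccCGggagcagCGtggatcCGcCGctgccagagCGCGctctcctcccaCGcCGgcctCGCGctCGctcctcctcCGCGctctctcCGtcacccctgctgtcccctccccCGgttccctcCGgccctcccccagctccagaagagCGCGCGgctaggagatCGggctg
The windows lie at chr6:113195335-113195634 (minus strand) for Lhfpl4, chr13:30545267-30545566 (minus) for Uqcrfs1, chr11:108343839-108344138 (minus) for Prkca, chr6:146577653-146577952 (plus) for Fgfr1op2 and chr16:95702157-95702456 (plus) for Ets2. They hold 27, 31, 42, 26 and 30 CG, in that order, and none holds TATAAA on either strand. Of the 293 gene names of split loci, 236 had a promoter in RefSeq, with a median of 24 CG. The median was 21 over the genes of all loci tested and 7 over all 27025 promoters. TATAAA was present in 5.93% of the promoters of split loci, 7.04% of those of the loci tested and 14.2% of all promoters.

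Split loci made up 1.93% of the loci tested. The gap was met in db/m for 134 of them, in db/db for 157 and in db/db-IF for 195. It was met in 1 group for 208 loci, in 2 groups for 88 and in all 3 groups for 34, and 47 were split only in db/m, 51 only in db/db and 110 only in db/db-IF. The median gap was 2.75 on the log2 scale, 133 loci had one above 3, 55 above 4 and 21 above 5, and the widest was 10.23. Just inside the limit lay Mtss1 (2.005), Kcnd3 (2.005) and Grik3 (2.007), and just outside it Fam135b (1.992), Asah1 (1.987) and 4930402H24Rik (1.986).

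The low level was mostly the rarer one. With the middle of the widest gap taken as the border for all 31 mice, 287 loci had fewer low than high mice and 43 had more. The median locus had 5 low mice, and the number ran from 2 to 29. For 169 loci the low mice came from all 3 groups, for 61 from 1 group, and for 324 loci there was a high mouse in every group. At 66 loci every low mouse was listed at 0, at 130 every low mouse was below 1 FPKM, and at 128 every low mouse still had 1 FPKM or more. An exact 0 in any mouse was present at 93 split loci (28.2%), against 2.08% of the loci tested. That share is partly set by the rule, since a mouse at 0 widens the gap to the high mice. No mouse was free of low loci, and mice had 54 to 84 of them in db/m, 69 to 109 in db/db and 79 to 129 in db/db-IF, with medians of 69, 79 and 98.5. These counts are partly set by the rule, as more loci were kept for a gap in db/db-IF (195) than in db/db (157) or db/m (134).

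**Figure D1:**
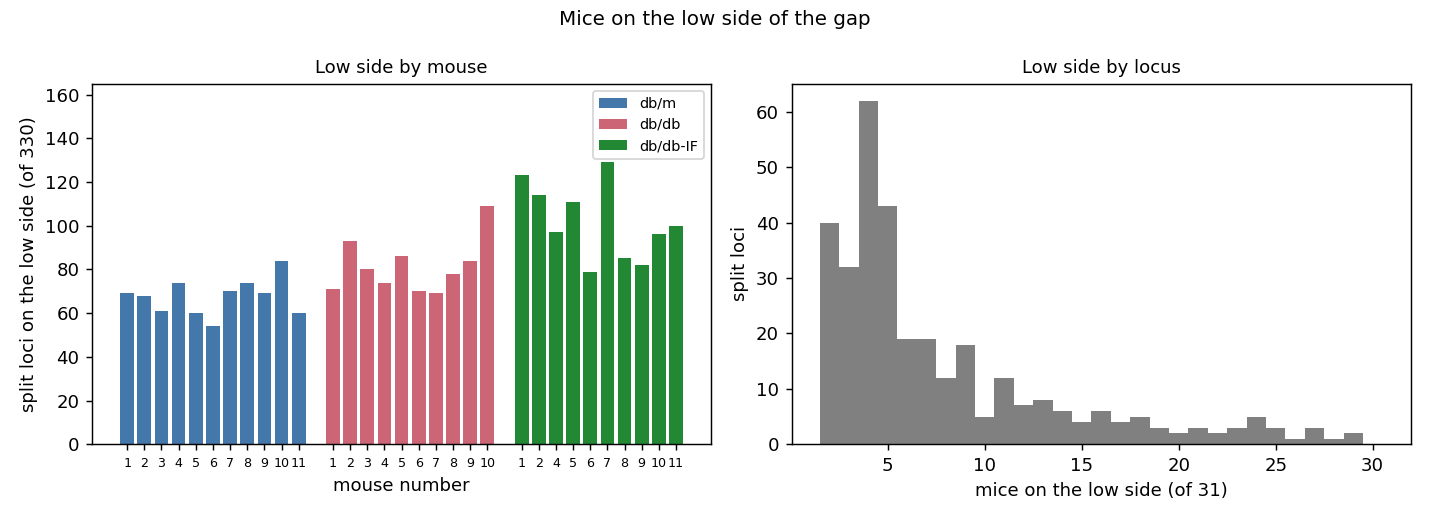
Left, the number of the 330 split loci at which each mouse lay on the low side (bars, 1 per mouse, coloured by group); right, the number of split loci by how many of the 31 mice were low. Fasted mice 7 (129 loci) and 1 (123) were low most often, and most loci had few low mice (median 5). The counts by mouse are partly set by the rule, which kept more loci for a gap in db/db-IF than in the other groups.

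The mice were not equally typical of their groups. On a scale over the 16809 tested loci that were not split, where 0 is the mean of the other db/db mice and 1 that of the other db/db-IF mice, the db/db-IF mice lay between 0.35 and 1.67 and the db/db mice between -0.23 and 0.29, except db/db mouse 10 at 0.58, above db/db-IF mouse 8 (0.35) and mouse 10 (0.54). Its label was followed, and whether that label is right was not tested. Without db/db mouse 10 there were 324 split loci, 146 of them in db/db. Neuronal and glial markers were present in every group. The summed level of 8 markers of hippocampal excitatory neurons was 1250 to 2080 FPKM in db/m. It was 1190 to 2240 in db/db and 1560 to 2140 in db/db-IF. Choroid plexus markers (9) summed to 727 to 33300 FPKM in db/m, 819 to 26400 in db/db and 4300 to 32000 in db/db-IF. Most of that sum was Ttr, with a db/m median of 18600 FPKM against 18800 for the sum. The part of tissue makeup in the split loci was not tested.

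Lhfpl4 and Kcnq3 were found at a low and a high level in every group. Lhfpl4 (MSTRG.9471, chr6:113168087-113195384), a membrane protein that holds GABA-A receptors at inhibitory synapses, was at 5.01 (lowest), 248 (median) and 291 (highest) FPKM in db/m, 4.39, 113 and 245 in db/db, and 4.2, 236 and 268 in db/db-IF. Low values stood within 4.2 to 7.11 FPKM and high values within 218 to 291, in mice 9 and 10 of db/m, 1, 2, 5, 7 and 8 of db/db and 6 and 10 of db/db-IF for the low level. The 3 groups overlapped at both levels. Kcnq3 (MSTRG.21667, chr15:65986374-66286636), a subunit of the M-type potassium channel that dampens repeated firing, was at 1.3, 83.4 and 94 FPKM in db/m, 0.975, 82.5 and 105 in db/db and 0.813, 68.8 and 79.1 in db/db-IF. There were 2 low mice in each of db/m and db/db-IF and 4 in db/db, and the groups again overlapped.

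Nudcd3, a cochaperone that stabilises the dynein motor, had the same shape at a far higher level, with MSTRG.16155 (chr11:6105691-6201619) at 193, 1656 and 1794 FPKM in db/m, 202, 1688 and 1959 in db/db and 221, 1565 and 1783 in db/db-IF. Exactly 3 mice of each group were low, all at 310 FPKM or less, and every other mouse was at 1464 or more. Uqcrfs1 (MSTRG.19343, chr13:30540312-30545316), the Rieske iron-sulphur subunit of respiratory complex III, was at 15, 19.8 and 113 FPKM in db/m, 15.2, 68.8 and 144 in db/db and 15.8, 136 and 146 in db/db-IF. Here the low level was the common one in db/m, with 7 of 11 mice, and was held by 5 db/db mice and 4 fasted ones. The high mice were at 105 to 113 FPKM in db/m, 118 to 144 in db/db and 135 to 146 after fasting, so the high level of db/m lay below that of the other groups, while the low levels overlapped.

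**Figure D2:**
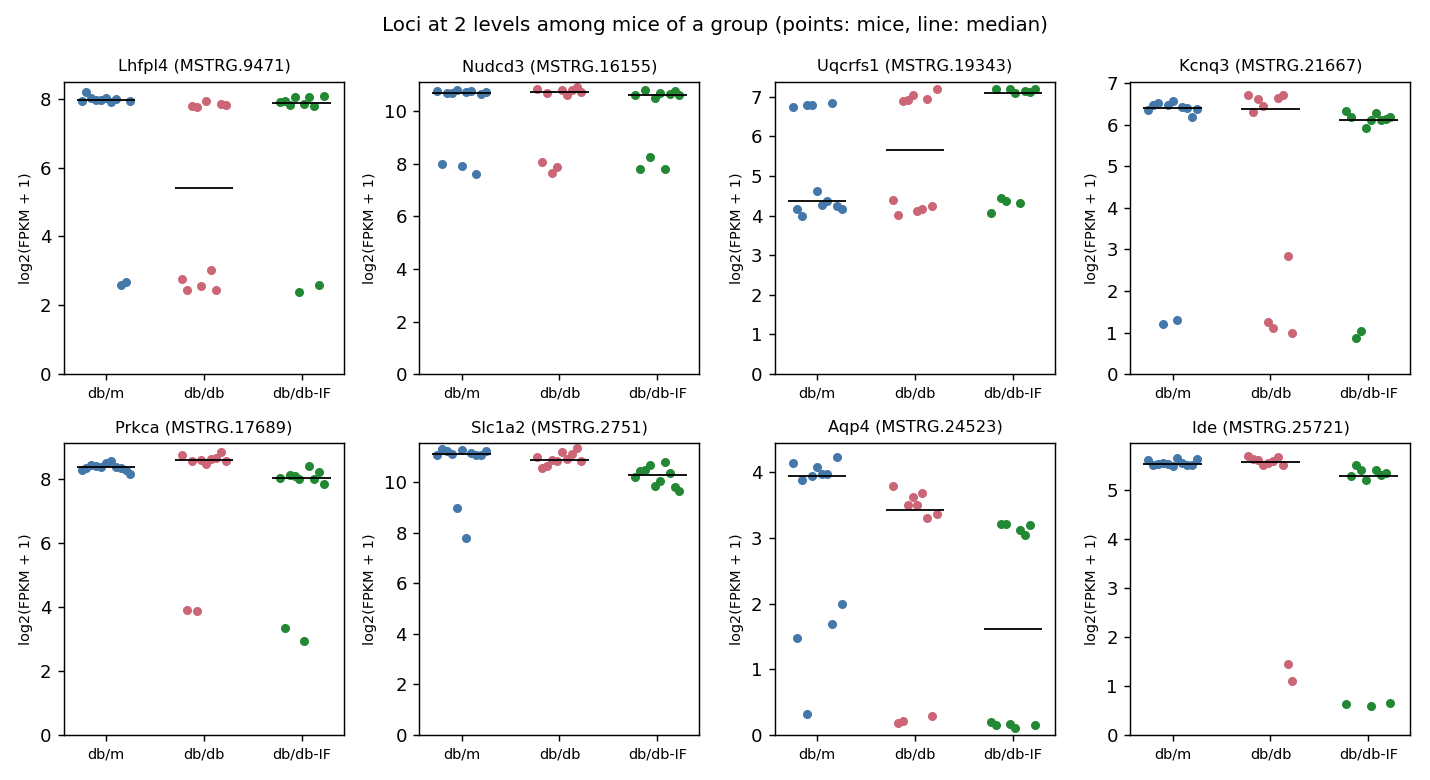
Level of 8 split loci, as log2(FPKM + 1), in every mouse (points) of the 3 groups with the group median (line). Points form a low and a high band with an empty space between them, as for Nudcd3, where 3 mice of each group lay at or below 310 FPKM and the others at or above 1464.

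Other loci split in all 3 groups were Adarb1, the editing enzyme ADAR2, with 5 low mice in db/m, 7 in db/db and 6 after fasting, Mllt11, a small neuronal protein first known from a leukaemia fusion, with 5, 7 and 7, and Cacul1, a cullin-domain protein, with 8, 6 and 5. Gfra1, a receptor of the growth factor GDNF, was low in 7, 7 and 6 mice. H1f0, a linker histone, was low in 3, 5 and 3, Pitpnc1, a phosphatidylinositol transfer protein, in 4, 7 and 5, and Usp31, a deubiquitinase, in 3, 4 and 5. Morn4, named for its MORN repeats, was low in 5, 3 and 4 mice at 58.7 to 126 FPKM and at 763 to 943 in the others. Fewer low mice were seen for Entpd1 (CD39, which breaks down extracellular ATP; 2, 2 and 2), Tbc1d5 (a regulator of Rab7; 3, 2 and 2), Zfx (an X-linked zinc finger factor; 3, 2 and 2), Arel1 (a ubiquitin ligase; 2, 2 and 5) and Tmem231 (a protein of the ciliary transition zone; 3, 3 and 3). The remaining ones of the kind with a full gene name were Dgke, Ipcef1, Sestd1, Soga1, Tmed8, Hs6st2, Coil, Pgam1-ps1, Fam126b, Fgfr1op2, Tm7sf3, S100pbp, Tet3, Dennd5b and a second locus of Ehmt2, with 8 to 19 low mice each of 31.

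Glutamate receptors and the astrocytic glutamate transporter were split in part of the groups. Slc1a2 (MSTRG.2751, chr2:102658239-102790784), which codes for the transporter GLT-1 that clears glutamate from the synapse, was split in db/m, where mice 7 and 5 were at 218 and 508 FPKM and the other 9 mice at 2134 to 2560. It ranged from 1528 to 2645 FPKM in db/db and from 800 to 1785 in db/db-IF without a gap. Gria4 (MSTRG.13265), an AMPA receptor subunit, was at 23.2, 26.4 and 40.4 FPKM in db/m, 11.6, 25.4 and 29.5 in db/db and 2.25, 19.2 and 21.4 in db/db-IF, and the split lay in db/db-IF, where mice 5 and 7 had 2.25 and 2.71. Grik3 (MSTRG.6161), a kainate receptor subunit, had 3 low mice each in db/m and db/db, at 3.84 to 8.93 FPKM, and 1 in db/db-IF.

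Among GABA receptors, Gabra4 (MSTRG.7436) was at 14.4, 110 and 129 FPKM in db/m, 23, 109 and 128 in db/db and 18.7, 81.8 and 99 in db/db-IF, with 2, 3 and 1 low mice. Gabrg3 (MSTRG.10732) was split in db/db, where mice 6 and 4 had 1.49 and 2.49 FPKM against 17.5 to 22.8 in the others, and all db/m mice lay within 17 to 23.8. Both code for subunits of the GABA-A receptor. The voltage-gated channel genes among the split loci were, besides Kcnq3, Cacna1e, Cacnb4 and Kcnd3. Cacna1e (MSTRG.1285), the pore of the R-type calcium channel, spanned 10.4 to 271 FPKM in db/m, 8.25 to 288 in db/db and 4.67 to 219 in db/db-IF. Cacnb4 (MSTRG.2353), an accessory calcium channel subunit, was low in 1 mouse of db/m (2.02), 1 of db/db (1.72) and 5 of db/db-IF (1.4 to 1.91), while the others were at 15.4 or more. Kcnd3 is described with the group comparisons.

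Synaptic vesicle genes were split as well. Syn3 (MSTRG.15649), a synapsin that tethers vesicles, was at 231 to 368 FPKM in all db/m mice, at 19.5 in db/db mouse 1, and at 10 and 11.5 in db/db-IF mice 6 and 11. At cell contacts, Nlgn1 (MSTRG.3924), a postsynaptic partner of neurexins, was listed at 0 in mice 2, 3 and 9 of db/m and was at 9.55 or more in every other mouse. Lrrtm4 (MSTRG.9149), another neurexin partner, was listed at 0 in db/m mouse 2 and db/db-IF mice 2 and 10. These loci made up 9.88% of the summed mean level of 5 loci of Nlgn1 and 16.2% of that of 21 loci of Lrrtm4, and neither sum was split (widest gaps 0.34 and 0.27). Prkca (MSTRG.17689, chr11:107933387-108343888), the protein kinase C alpha of synaptic signalling, was at 279, 328 and 371 FPKM in db/m, 13.6, 380 and 449 in db/db and 6.68, 257 and 335 in db/db-IF. Its low mice were 2 and 4 of db/db and 2 and 7 of db/db-IF, none was found in db/m, and the high values of the 3 groups overlapped.

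By lists of genes, split loci were few in each. They were 4 of 85 loci tested for voltage-gated channels (4.71%), 3 of 59 for synaptic vesicles and exocytosis (5.08%), 2 of 30 for GABA synthesis, transport and receptors (6.67%), and 3 of 96 for glutamate receptors and scaffolds (3.12%). For nuclear genes of oxidative phosphorylation they were 2 of 82 (2.44%), for adhesion at the synapse 2 of 91 (2.2%), for the cytoskeleton and axonal transport 1 of 56 (1.79%, Kif1b), for kinases and phosphatases 1 of 57 (1.75%) and for immediate early genes 1 of 21 (4.76%, Nr4a3). No locus was split among 85 loci of splicing factors, 23 of neuropeptides, 23 of long noncoding RNAs and 22 of interferon response and MHC class I genes. These shares stand beside 1.93% over all loci tested and were not tested.

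Of the cell type markers, Aqp4 was the only one whose highest locus was split. Aqp4 (MSTRG.24523), the water channel of astrocyte endfeet, was at 0.251, 14.4 and 17.9 FPKM in db/m, 0.136, 9.78 and 12.9 in db/db and 0.0755, 3.72 and 8.3 in db/db-IF. The other astrocyte markers showed no gap in these mice. Gfap ranged from 255 to 331 FPKM in db/m, 167 to 252 in db/db and 189 to 256 in db/db-IF, Slc1a3 from 153 to 203, 127 to 184 and 105 to 141, Gja1 from 61.1 to 81.2, 57.2 to 82.2 and 33.5 to 57.1, and Aldh1l1 from 7.29 to 9.04, 6.62 to 8.51 and 7.87 to 10.3. The summed level of the 5 astrocyte markers was 484 to 612 FPKM in db/m, 375 to 532 in db/db and 354 to 440 in db/db-IF.

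Further loci were singled out after their values were seen, for what their genes do. Ide (MSTRG.25721), the enzyme that degrades insulin and amyloid beta, was at 43.9 to 49.5 FPKM in every db/m mouse, at 1.14 to 1.73 in db/db mice 9 and 10 against 44.9 to 51.2 in the others, and at 0.505 to 0.566 in db/db-IF mice 1, 7 and 11 against 36.2 to 45. Mfn2 (MSTRG.6592), which fuses mitochondria, was at 134 to 194 FPKM in db/m, at 26.9 to 36.9 in 4 db/db mice and at 14.1 to 26.9 in 6 db/db-IF mice, while the remaining mice were at 128 or more. Atf6 (MSTRG.1432), a sensor of unfolded protein in the endoplasmic reticulum, was low in 1 db/m mouse, 4 db/db mice and 6 fasted ones, with 0.11 to 0.763 FPKM in the low mice and 12.6 to 23.7 in the others. Clock (MSTRG.7477), a circadian transcription factor, was low in 1, 5 and 4 mice, Fkbp5 (MSTRG.23649), a cochaperone of the glucocorticoid receptor, in 5, 4 and 6, and Hdac4 (MSTRG.840), a histone deacetylase, in 2, 2 and none.

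Cytochrome c, the electron carrier of the respiratory chain, was the other oxidative phosphorylation gene. Its locus Cycs (MSTRG.25574) was listed at 0 in db/m mouse 11, db/db mice 3, 5 and 8 and db/db-IF mouse 9, and was at 113 to 138 FPKM, 113 to 145 and 129 to 155 in the others of these groups. The number of this locus lies among those of chromosome 19, while the gene is on chromosome 6. The same was found for 5 of 248 split loci whose place could be compared, the others being Kalrn, Ptma, Hspe1 and Rrbp1. Over the whole table, 18380 of 18468 single-name loci (99.52%) lay on the chromosome of their numeric neighbours. Hspe1 (MSTRG.24839), the mitochondrial chaperonin HSP10, was low in 27 of 31 mice at this locus, while its locus on the gene's own chromosome (MSTRG.446) was at 54.7 to 63.8 FPKM in db/m, 48.5 to 65.2 in db/db and 62 to 73 in db/db-IF.

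The widest gaps belonged to loci listed at 0 in a few mice and high in the rest. Ehmt2 (MSTRG.27142, gene at chr17:34898463-34914073), the histone methyltransferase G9a, was listed at 0 in db/m mice 7, 8 and 11, db/db mouse 1 and db/db-IF mouse 7, and was at 1202 to 1535, 1234 to 1479 and 1497 to 1906 FPKM in the other mice of these groups. Arvcf (MSTRG.27951), a catenin of cell junctions, was listed at 0 in db/db mice 3, 5 and 8 and db/db-IF mice 1 and 4, and was at 86.5 to 104 FPKM in all db/m mice. This locus made up 76.9% of the summed mean level of 3 loci of Arvcf. The sum was still split, but its widest gap was 2.27, against 6.6 at the locus. Brd2 (MSTRG.23784), a bromodomain reader of acetylated histones, was listed at 0 in mice 3 and 8 of db/m and mouse 4 of db/db-IF, but this locus made up 4.31% of the summed mean level of 4 loci of the gene, and the sum was not split (widest gap 0.09). Pabpc1l2b-ps (MSTRG.26620), a pseudogene of a poly(A)-binding protein, was listed at 0 in 2 db/m and 2 db/db mice. It made up 78.9% of the sum over 2 loci, whose widest gap was 2.15, against 5.07 at this locus. The set of mice at 0 differed among these loci, and each set took in mice of 2 or 3 groups.

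Many genes of split loci were read at several loci. Of the 306 split loci with a single gene name, 136 (44.4%) belonged to a gene with several loci, against 26.9% of the loci tested. Of all 330 split loci, 82 (24.8%) had the highest mean FPKM among several loci of their gene, against 10.9%. That share is partly set by the rule, since a wide gap needs high mice. Locus numbers follow the chromosomes from 1 to Y and the mitochondrial genome, and 658 loci are numbered after that, of which 514 repeat a gene name found before. Such numbers were held by 42 split loci (12.7%), against 3.151% of the loci tested. The levels of all loci of a gene were therefore added up in each mouse. The sum was still split in at least 1 group for 48 of the 136 loci and was not split for 88. A split locus made up a median of 89.9% of the gene's summed mean level where the sum was split, and of 47.5% where it was not. The sum was not split for several genes described above, among them Kcnq3 (this locus 66.1% of the sum, widest gap of the sum 1.57), Gabrg3 (81.9%, 1.59), Grik3 (91.1%, 1.88), Gria4 (95.7%, 0.78), Clock (57.9%, 1.02), Cycs (35.2%, 0.57) and Ehmt2 (59.1%, 1.24). Among loci split in all 3 groups, neither was it for Entpd1 (50.5%, 1.06), Dgke (54.6%, 0.83), Coil (74.1%, 1.12), Tm7sf3 (61.4%, 0.82) and Tet3 (68.8%, 1.91). It was still split for Ipcef1 (widest gap of the sum 3.2), Dennd5b (3.12) and S100pbp (2.11).

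In Fgfr1op2 and Akap1, the loci of a pair were under 1 FPKM in different mice. Fgfr1op2 codes for a cytoskeleton-associated protein known from a leukaemia fusion. Its locus MSTRG.9891 was at 0.456, 1.72 and 17.9 FPKM in db/m, 0.137, 17.6 and 21 in db/db and 0.201, 16.1 and 26.4 in db/db-IF, and its locus MSTRG.27299 was at 13.4 to 22.8, 14 to 24.2 and 0.164 to 20. No mouse was under 1 FPKM at both, and the sum of the pair was 22.8 to 32.8 FPKM in db/m, 22.4 to 37.4 in db/db and 10.6 to 30.8 in db/db-IF, with no gap above 0.26 that left 2 mice on either side. Akap1, which anchors protein kinase A at mitochondria, also had no mouse under 1 FPKM at both loci, but with a nearly fixed ratio where both were read. Its locus MSTRG.17289 was under 1 FPKM in 11 mice, its locus MSTRG.27385 in 4 other mice, and in the 16 mice with both, the ratio of the latter to the former stayed within 1.06 to 1.21. The sum of these loci was 5.97 to 14.6 FPKM in db/m (median 12.7), 12.1 to 14.8 in db/db and 8.53 to 11.9 in db/db-IF. The lowest db/m sum was thus well below the median, so a low level at 1 locus was not always made up at the other.

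In other genes the loci kept a fixed ratio and were at 0 together. Bag6 (MSTRG.23820 and MSTRG.27158), a chaperone for membrane proteins, was listed at 0 at both of these loci in the same 5 mice (db/db-IF 5 and 8, db/db 3 and 7, and db/m 7), and the ratio of the latter to the former was 14.7 to 17.2 in the other 26. Bag6 was read at 4 loci, of which these made up 5.03% and 78.5% of the summed mean level. The sum over the 4 loci was still split, but its widest gap was 2.7, against 9.35 at MSTRG.27158. Slc30a1 (MSTRG.1686 and MSTRG.28004), a zinc exporter, was listed at 0 at both in 5 mice, with a ratio of 1.14 to 1.17 in the others. Ets2 (MSTRG.23187 and MSTRG.27098), a transcription factor, was listed at 0 at both in db/db-IF mice 5 and 7, with a ratio of 0.293 to 0.305 in the other 29. Its first locus was at 221 to 264 FPKM in db/m, 228 to 313 in db/db and 189 to 243 in the other db/db-IF mice. Rab11b (MSTRG.27393 and MSTRG.27738), a regulator of recycling endosomes, was listed at 0 at both in db/db-IF mice 1, 4 and 5, but with a ratio anywhere from 0.544 to 3.75 elsewhere. Rab11b was read at 3 loci, of which these made up 38.6% and 31.3% of the summed mean level. The sum over the 3 loci was still split (widest gap 2.33, against 5.2 and 5.25 at these loci).

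As for Akap1, another gene had loci at a fixed ratio that were low in different mice. For Naaladl2 (MSTRG.3916 and MSTRG.3917), a peptidase-like gene, the ratio was 0.685 in each of 24 mice, and 3 and 4 mice were under 1 FPKM at either locus but none at both. Slc30a1, Akap1 and Naaladl2 were singled out after their values were seen.

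**Figure D3:**
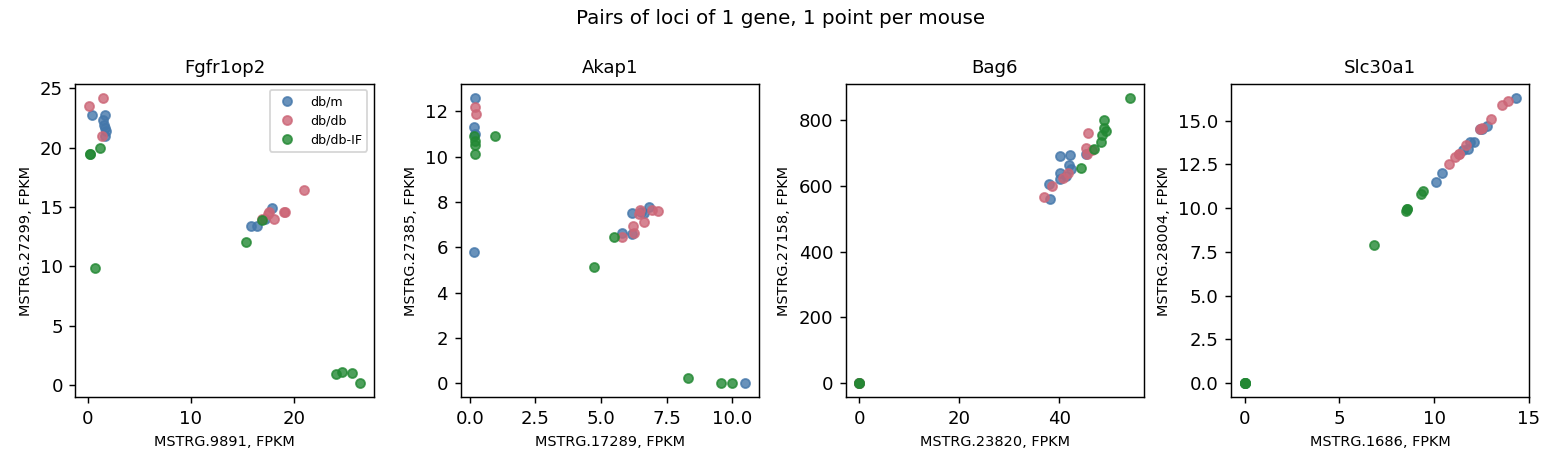
FPKM at a pair of loci of 1 gene, with a point for each of the 31 mice, coloured by group. Points of Fgfr1op2 spread between the axes. For Akap1, 16 mice lie near a line and the others were under 1 FPKM at 1 locus. Neither gene had a mouse under 1 FPKM at both loci, while points of Bag6 and Slc30a1 lie on a line with 5 mice at the origin.

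The arrangement of low and high mice was mostly particular to each locus, with 310 distinct ones over the 330 loci. An arrangement was shared in 10 sets that held 30 loci. The largest set had 7 loci low in db/db-IF mice 5 and 7, among them Gria4, both loci of Ets2, Ermp1 and Trim2, and the next had 6 loci low in db/db-IF mice 7 and 11, among them Plxna2, Slc25a25 and Bbs1. Of the 10 sets, 4 held a pair of loci of 1 gene and 3 held loci within 20 numbers of each other. Fgfr1op2 and Tm7sf3, which lie side by side on chromosome 6, shared 14 low mice, and Akap1 and Coil, near each other on chromosome 11, shared 11. Mks1, Akap1 and Scpep1, a run of loci numbered after the mitochondrial genome, were low in db/m mouse 1 and db/db-IF mice 1, 6 and 11. Of all split loci, 70 lay in 32 runs of loci within 5 numbers of one another, and pairs in such runs had 10 to 31 of 31 mice on the same side.

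Size and transcripts, which the rule did not use, were set beside those of all loci tested. The longest transcript of the gene had a median of 5321.5 bases for split loci and 3355 for the loci tested, and the gene spanned a median of 56710 against 23510.5 bases. RefSeq lists a median of 5 transcripts per gene against 3. The median of the mean FPKM was 19.5 against 10.8, a level that the rule partly set, since a wide gap needs high mice. Protein-coding genes made up 94.6% of the split loci with a matched name and 89.6% of the loci tested, and predicted names alone 6.667% against 11.9%. A near-identical transcript of another gene, of at least 200 bases at 95% identity or more, was found for 20 of 297 split loci (6.73%) and 9.3% of the loci tested, and levels of such loci are uncertain where fragments could be divided. Csnk2a1 (2 such other genes), Cycs (3) and both split loci of Rab11b (1) were among the 20. By chromosome, the share of loci that were split ran from 1.07% on chromosome 9 to 2.95% on chromosome 19.

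Between db/db-IF and the rest, 80 of the 330 split loci (24.2%) passed the test, beside 57.7% of all loci tested (limma on log2(FPKM + 1), adjusted p under 0.05). Of these 80, 77 were lower in db/db-IF and 3 higher, beside 30.9% lower and 26.8% higher over all loci. Against db/db alone, 63 (19.1%) passed, 58 lower and 5 higher, beside 51.1% of all loci. For db/m against the rest it was 16 (4.85%, 13 of them higher) beside 23.6%, for db/db against the rest 2 (0.606%) beside 9.51%, and for db/db against db/m 3 (0.909%) beside 5.75%. Leaving out single mice moved the 16 to between 8 and 22, with 8 to 10 when db/m mouse 2, 3, 6 or 7 or db/db-IF mouse 1 or 2 was left out, and left 1 call for db/db against the rest without db/db mouse 4 or 8 and 1 against db/m without mouse 8. Without db/db mouse 10, which lay nearest to the fasted mice, the 80 became 86 and the 63 became 68. The wide spread between mice, by which these loci were chosen, gave a median standard error of 0.46 for db/db-IF against the rest, against 0.07 over all loci. The median log2 difference in that comparison was -0.46 for split loci and -0.03 over all loci. That difference and the direction of the calls are partly set by the rule. Of the split loci, 195 were split in db/db-IF and 110 only there, and the low level was mostly the rarer one. The comparisons share mice and are not independent of each other.

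Lower levels in fasted mice moved with a property of the libraries. Each mouse's slope of log2(FPKM + 1) on log2 transcript length, relative to the mean of all mice, was 0.00127 to 0.0819 in db/m, -0.0394 to 0.0715 in db/db, with db/db mouse 10 the lowest, and -0.238 to -0.0446 in db/db-IF. Long transcripts thus read lower in every fasted mouse, and genes of split loci were long. With the slope as a covariate, limma called 0 split loci for db/db-IF against the rest (26 at an unadjusted p under 0.05), beside 158 of all 17139 loci (0.922%), where 9893 were called without it. Against db/db it called 0 (21 unadjusted) beside 311 of all loci, where 8751 were called without it. For db/m against the rest it called 2 beside 1473, for db/db against the rest 3 beside 1355, and for db/db against db/m 4 beside 1736. The calls between db/db-IF and the other mice were thus lost for nearly all loci, split or not. The fasting and this slope cannot be told apart in these mice.

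The cell adhesion molecule Alcam was the split locus with the smallest adjusted p. Alcam (MSTRG.22948) was at 99, 116 and 139 FPKM in db/m, 55.2, 112 and 124 in db/db and 2.91, 10.4 and 97.4 in db/db-IF, where 7 mice were at 2.91 to 11.5 and 3 at 71.2 to 97.4. All db/m mice were above all fasted mice, and the high fasted mice overlapped db/db. The log2 difference of db/db-IF from the rest was -2.78 ± 0.37 (SE, adjusted p = 3.81e-07 from limma). Fam91a1 (MSTRG.21635), a protein of vesicle capture at the Golgi, was at 5.97 to 7.33 FPKM in db/m, at 5.97 to 7.45 in db/db except mouse 10 (0.0296), and at 0.062 or less in 7 fasted mice against 4.32 to 5.05 in the other 3 (-2.04 ± 0.32, adjusted p = 3.83e-06). The zinc finger gene Zfp37 (MSTRG.27234) was at 5.64 to 7.18 FPKM in db/m, 5.54 to 7.89 in db/db, and among fasted mice at 0.031 or less in 5 and at 4.92 to 5.53 in 5 (-1.58 ± 0.29, adjusted p = 3.22e-05). All fasted mice lay below all db/m mice for Fam91a1 and Zfp37. Zfp37 was read at 2 loci, of which this one made up 35% of the summed mean level, and the sum was not split (widest gap 0.46).

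Cldn12 (MSTRG.6810), a claudin of cell junctions, was at 31.3, 59.5 and 69.2 FPKM in db/m, 0.452, 56 and 66.4 in db/db and 0.133, 1.3 and 62.2 in db/db-IF, with none, 4 and 8 low mice. Its difference was -3.12 ± 0.64 for db/db-IF against the rest (adjusted p = 0.000123 from limma). Atad1 (MSTRG.25684), an ATPase that draws AMPA receptors off the synapse, was low in db/m mouse 6 (22.7) and in 5 fasted mice (2.42 to 9.5), and was at 118 to 139 FPKM in all db/db mice. Its difference between db/db-IF and db/db was -2.32 ± 0.56 (adjusted p = 0.00113 from limma). Mfn2, described above, was also lower in db/db-IF than in the rest, by -1.27 ± 0.45 (adjusted p = 0.0169 from limma), but its difference from db/db, -0.77 ± 0.50, did not pass (adjusted p = 0.203), and without db/db-IF mice 1, 7 and 11 that from the rest did not either (-0.66, adjusted p = 0.271).

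Sv2c (MSTRG.19967), a synaptic vesicle glycoprotein, was high in every db/m mouse (17.5, 20.3 and 27.8 FPKM), low in 5 db/db mice (0.212, 8.11 and 22.1) and low in 8 db/db-IF mice (0.3, 0.63 and 14.8). Its log2 difference of db/m from the rest was 2.60 ± 0.53 (adjusted p = 0.00134 from limma). That was the smallest adjusted p among split loci with a full gene name. The predicted gene Gm26839 (MSTRG.18833) had a smaller one (-1.98, adjusted p = 0.000358 from limma). Sv2c differed between db/db and db/m by -2.02 ± 0.59 (adjusted p = 0.0364 from limma). High db/db mice overlapped db/m. The call between db/db and db/m was lost when any of 10 single mice was left out (adjusted p of 0.0507 to 0.0784). This locus made up 10.7% of the summed mean level of 3 loci of Sv2c, and the sum was not split (widest gap 0.2). Gnl1 (MSTRG.27482), a GTP-binding protein, was at 6.73 to 20.7 FPKM in db/m and listed at 0 in 2 db/db mice and 3 fasted ones (log2 difference of db/m from the rest 1.51 ± 0.47, adjusted p = 0.0233). It made up 3.9% of the sum over 2 loci of Gnl1, which was not split (widest gap 0.16). Csnk2a1 (MSTRG.3332), the catalytic subunit of casein kinase 2, was low in 3 mice of db/m, 6 of db/db and 9 of db/db-IF (log2 difference of db/m from the rest 1.33 ± 0.42, adjusted p = 0.0233), so that its medians were 16.2, 2.7 and 1.52 FPKM. Its call was lost on normal scores of ranks (adjusted p = 0.0761 from limma). Near-identical transcripts of 2 other genes were found for Csnk2a1, so its level is uncertain where fragments could be divided. Without db/db-IF mice 1, 7 and 11 neither Csnk2a1 nor Gnl1 passed (0.0618 and 0.056), nor with the length slope as a covariate (0.314 and 0.149).

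Kcnd3 (MSTRG.4699), the Kv4.3 subunit of A-type potassium channels, was a rare case of a high level in a few mice. It was at 0.528, 0.797 and 2.9 FPKM in db/m, 0.771, 2.87 and 18.4 in db/db and 0.366, 1.37 and 7.07 in db/db-IF, and 2 db/db mice, at 16.5 and 18.4, stood above all others. It exceeded db/m in db/db by 1.25 ± 0.34 (adjusted p = 0.0259 from limma) and the rest by 1.04 ± 0.31 (adjusted p = 0.0312). Without db/db mouse 8, 1 of the 2, neither difference passed (adjusted p = 0.055 and 0.0676 from limma), and without mouse 4 the latter did not (0.0646). This locus made up 24.2% of the summed mean level of 2 loci of Kcnd3, and the sum was not split (widest gap 0.77). An unnamed locus, MSTRG.21678, listed at 0 in db/db mice 1, 7, 8 and 9, was at 40.9 to 53.7 FPKM in db/m and 52.1 to 67.5 in db/db-IF, and differed between db/db and the rest by -2.37 ± 0.61 (adjusted p = 0.015). That call was lost on normal scores of ranks (adjusted p = 0.0687 from limma). The predicted gene Gm26839 (MSTRG.18833), listed at 0 in 4 db/m mice, was the remaining locus past the test between db/db and db/m (1.67 ± 0.40, adjusted p = 0.0109). Both were named after their values were seen.

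**Figure D4:**
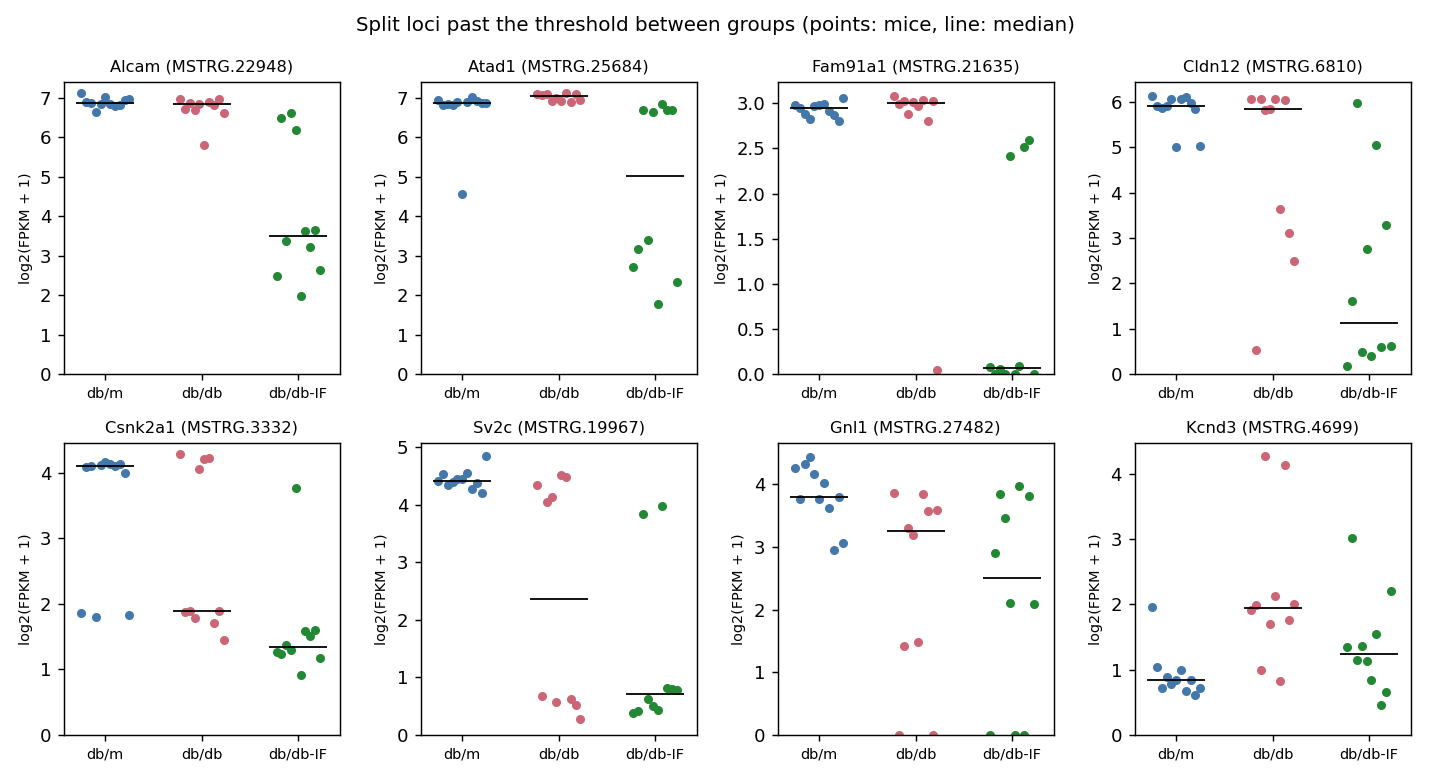
Level of 8 split loci past the threshold in a comparison between groups, as log2(FPKM + 1), for every mouse (points) with the group median (line). Alcam, Fam91a1 and Cldn12 were low in 7, 7 and 8 of 10 fasted mice, Sv2c was high in all 11 db/m mice, and Kcnd3 was high in 2 db/db mice.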

How the data were processed

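Libraries were made by a BGI-500 protocol, and the values used are the deposited FPKM of 27094 loci in 31 mice. Per the submitters' processing notes, the authors used Trimmomatic 0.38 for trimming, HISAT2 for alignment, with GRCm38.p6 as the build, and StringTie 1.3.4d, which merged transcripts and gave FPKM, and they compared groups with Ballgown. Read counts were not used here, so depth is unknown. How fragments are divided among overlapping or repeated loci can move a level between loci.

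Groups were compared on log2(FPKM + 1), a scale that understates changes of low loci, by limma 3.58.1 in R 4.3.3 with a mean-dependent prior and no covariate, two-sided, with Benjamini-Hochberg adjustment over the 17139 loci tested (threshold 0.05). The labels do not say how the mice were kept, so p-values measure the spread between these libraries. The study counts fewer db/db and more fasted mice than the labels, which were followed. The files do not tell whether this concerns db/db mouse 10, which lay near the fasted mice. The study's methods start the fasting at a later age than the labels give for all mice. The table had 0 columns of other samples. Genes were matched by symbol or synonym to RefSeq and GENCODE, and copies sought with minimap2 2.31-r1302. Other steps ran in Python 3.11.15 (pandas 2.3.3, numpy 2.4.6, matplotlib 3.10.9). The steps were tested on simulated data.

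Genes named are, per group, the 6 widest gaps, all loci split in 3 groups, the 8 highest means, up to 4 called per comparison, 3 on either side of the limit, up to 4 of each list, and Lepr. Some genes that this rule takes in are not reported here. Loci, lists and tests were chosen with earlier results of these data known. Alternatives were another pseudocount, gap, filter, number of mice, threshold or scaling, covariates, weights, ranks, a replicate block and leaving out mice.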

Additional observations from a re-analysis of the deposited data

Results flagged for a closer look

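A value was singled out when 1 mouse of a group of 10 lay far from the other 9, by Dixon's ratio on log2(FPKM + 1). This was the case in 14 of 152 groups examined, and chance alone gives about 1 in 20. The groups were those of named split loci, of a few split loci added by hand, and of the number of low loci per mouse. The loci were chosen for gaps between mice, so such values are frequent among them by choice. db/m, with 11 mice, was not examined. In db/db, mouse 5 was by far the lowest for Gria4 (11.6 FPKM) and Copg2 (61.5, a coat protein of Golgi vesicles), mouse 6 for Alcam (55.2) and Cacnb4 (1.72), mouse 10 for Rap1gap2 (43.8, which switches off the GTPase Rap1) and Fam91a1 (0.0296), and mouse 1 for Syn3 (19.5). Ehmt2 (MSTRG.27142) was listed at 0 in db/db mouse 1 and at 0 in db/db-IF mouse 7, and Brd2 and Cycs were listed at 0 in db/db-IF mice 4 and 9. Among fasted mice, mouse 9 was by far the lowest for Grik3 (3.54) and mouse 10 for Gabra4 (18.7), while mouse 6 was by far the highest for Csnk2a1 (12.6).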

How the results depend on the processing

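The number of split loci follows the limits set. Given for any group, then for db/m, for db/db and last for db/db-IF, it was 539, 230, 258 and 334 with a gap above 1.5, 133, 46, 64 and 80 with a gap above 3, 188, 63, 85 and 110 with at least 3 mice on either side, 537, 233, 249 and 341 with a pseudocount of 0.1, and 128, 56, 64 and 75 with FPKM above 1 in all 31 mice. Leaving out each mouse in turn gave 318 to 335, 120 to 134, 143 to 157 and 183 to 195. Sums over the loci of a gene were split for 81 loci with a gap above 1.5.

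Split loci past limma's test, for db/db-IF, db/db and db/m against the rest, db/db-IF against db/db and db/db against db/m, were 49, 0, 2, 24 and 0 at a threshold of 0.01 (104, 21, 51, 87 and 18 at an unadjusted p under 0.05), beside 7867, 401, 1270, 6475 and 363 of all 17139 loci, and 202, 33, 51, 167 and 16 on normal scores of ranks, beside 11102, 2678, 4536, 9706 and 1699. Array weights gave 25 for db/m against the rest and 6 for db/db against db/m, beside 4793 and 2067. Taking each mouse's length slope as a covariate gave 0, 2 and 0 for db/db-IF and db/m against the rest and db/db-IF against db/db, beside 158, 1473 and 311. Leaving out each mouse gave 71 to 92, 1 to 3, 8 to 22, 50 to 69 and 1 to 4. Without db/db-IF mice 1, 7 and 11, chosen after seeing the data, 48, 4 and 38 passed for db/db-IF and db/m against the rest and db/db-IF against db/db, beside 7808, 3015 and 6898. The cause of these changes was not tested. Equal numbers do not pair the mice, as correlations of their deviations were -0.27 to 0.16 and 2 of 29 exceeded 0.1, and a mouse correlated best with its own number in 2 cases for db/m with db/db, 1 for db/m with db/db-IF and 0 for db/db with db/db-IF. With the number as a replicate block, 1 passed for db/db against the rest and 9 for db/m against the rest, beside 276 and 2563, and the calls of Kcnd3 for db/db against the rest (adjusted p = 0.0626) and of Sv2c for db/db against db/m (0.0723) were lost. Other settings, read-quality set and quantile normalization among them, kept counts within 1.5 times.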
